A study of Mus musculus with 18 samples.

Results

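The proteasome subunit genes were 46 of the 12393 genes named by a single symbol on the array, and 83 of its 22690 probe sets measured them. A probe set was taken when its single gene symbol in the array's probe annotation began with Psma, Psmb, Psmc, Psmd, Psme, Psmf or Psmg and a number, and the immunoproteasome genes Psmb8 and Psmb9 were left out. The 83 probe sets belonged to 46 genes: 28 probe sets of 16 genes of the core particle, 33 of 17 genes of the regulatory particle, and 22 of 13 other genes, which were assembly chaperones, activators, an inhibitor and 2 genes that share the symbol pattern without being subunits (Psmc3ip and Psme3ip1). Of the 83, 67 probe sets of 44 genes passed the filter on low signals and were tested, namely 22 of the core particle, 26 of the regulatory particle and 19 of the others. Psma8, an alpha subunit known from testis, and Psmc3ip had only untested probe sets. Where a gene had several tested probe sets, they are numbered in the order of their identifiers.

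RNA came from the oculomotor nucleus, a midbrain nucleus whose motor neurons drive eye movement and resist amyotrophic lateral sclerosis (ALS), and from the cervical spinal cord, whose motor neurons are lost in it. The 6 groups were mutant mice of an ALS model at 6 weeks, control mice at 10 weeks and mutant mice at 10 weeks, each sampled in both regions with 3 arrays per group. The labels name no mutation, promoter, strain or pooling, give the same model description for controls as for mutants, and include no control of 6 weeks. The array of control spinal cord replicate 1 had a correlation of only 0.0104 to 0.0143 with the others across probe sets and was not used, so that this group held 2 arrays and the study 17.

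Among the 17 arrays the correlation was 0.957 to 0.985 and the median signal 207 to 226. Marker genes separated the regions: the summed signal of 5 spinal Hox genes was 127 to 346 in the oculomotor nucleus and 5092 to 6443 in spinal cord, and that of 4 motor neuron genes was 514 to 691 against 2284 to 2842. Motor neuron genes were thus lower in the oculomotor samples, and 4 genes of dopamine and serotonin neurons were higher there (6058 to 9732 against 612 to 879). Astrocytes and meninges had the higher sums in spinal cord, with 23507 to 28606 against 36096 to 43957 for 8 astrocyte genes and 2664 to 3488 against 5771 to 10997 for 8 genes of the meninges. Single astrocyte genes went either way. At an adjusted p under 0.05 in limma, 2 were higher and 4 lower in the oculomotor nucleus of 6-week mutants (12.2% and 11.7% of all tested probe sets). In controls 1 was higher and 4 were lower (6.62% and 6.94% of all tested). The same counts held in mutants of 10 weeks (9.30% and 9.99% of all tested). For 8 oligodendrocyte genes the regions overlapped in 6-week mutants (55141 to 56375 against 53115 to 57562), while spinal cord was higher in controls (32486 to 35614 against 49808 to 60610) and in mutants of 10 weeks (41250 to 45941 against 52340 to 67750). Sums of 10 neuron genes overlapped in 6-week mutants (50311 to 52811 against 47709 to 50608). They also overlapped in mutants of 10 weeks (49498.5 to 52055 against 50961 to 60566). In controls spinal cord had the higher neuron sums (46589 to 50078.5 against 52571 to 56457). The part of these cell types in the proteasome results was not tested. In these bulk samples, fewer cells of a type and less RNA per cell cannot be told apart. Nothing in the labels says that arrays stand for separate animals, and p-values therefore reflect the spread among arrays, which may be technical. Precision is limited by how few arrays there are. Fold changes are differences of log2(signal + 25) with their standard error (SE), and a probe set is called when its adjusted p in limma over 13575 probe sets was under 0.05.

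The proteasome is the protease that degrades proteins tagged with ubiquitin. Its barrel-shaped core particle is built of outer alpha rings, which gate the entry, and inner beta rings, in which Psmb5, Psmb6 and Psmb7 carry the active sites. The regulatory particle caps the barrel: a base with ATPases (Psmc genes) unfolds the substrate, and a lid with the deubiquitinase Psmd14 removes the ubiquitin chain. Every eukaryotic cell needs the complex, and inclusions that hold ubiquitin are a known feature of motor neurons in ALS.

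RefSeq (GRCm38.p6) start-site windows of 300 bases, 250 before and 50 after the start, were found for 38 of the 46 genes, in 41 windows. Psma8, Psmb1, Psmb2, Psmb7, Psmc3, Psmd3, Psmd7 and Psmg2 had none in the table. 4 motifs, chosen with the expression results known, were searched on both strands, and no matches of different motifs overlapped. The core of the antioxidant response element, TGACNNNGC, which is bound by Nfe2l1 and Nfe2l2, was present in 14.63% of member windows and 12.39% of all 32851 windows, and among the members in those of Psmb5, Psmb6, Psmc6, Psmd9, Psmd12 and Psme4. Stretches of 30 bases from the genes of the active subunits Psmb5 and Psmb6 are shown as examples, with the match in capitals. Neither gene was called in any comparison below. The Psmb5 stretch lies at chr14:54618023-54618052 on the minus strand, and that of Psmb6 at chr11:70525338-70525367 on the plus strand.
Psmb5: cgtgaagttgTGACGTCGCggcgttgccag
Psmb6: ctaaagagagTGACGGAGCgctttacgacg

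The core of the interferon response element, TTTC, any 2 bases and TTTC again, was present in 12.2% of member windows and 3.443% of all windows, and among the members in those of Psmb3, Psmd4, Psmd9, Psmg4 and Psme1. The Psme1 stretch, at chr14:55578493-55578522 on the plus strand just after the start site, is shown because Psme1 was the member called in all 3 regional comparisons.
Psme1: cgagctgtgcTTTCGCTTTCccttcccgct

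The ETS core, CCGGAAG, which factors of the ETS family bind, differed most between the particles. It was present in 10 of 15 windows of the regulatory particle (66.67%, 9 of 14 genes), in 1 of 13 windows of the core particle (7.692%, Psma6), in 6 of 13 windows of the other members, in 8.858% of all windows and in 11.56% of those of protein-coding genes. The CCAAT box, CCAAT, was found in 34.15% of member windows and 37.41% of all. Stretches from 5 genes of the regulatory particle are shown, since this motif is what their windows share; CTTCCGG is the same motif read on the other strand. They lie at chr12:100110163-100110192 (Psmc1, plus strand), chr16:20651615-20651644 (Psmd2, plus), chr14:14120972-14121001 (Psmd6, minus), chr11:107479500-107479529 (Psmd12, plus) and chr7:140882377-140882406 (Psmd13, plus).
Psmc1: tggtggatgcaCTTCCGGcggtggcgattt
Psmd2: tccgcagggcgCTTCCGGtctggaggacaa
Psmd6: cagagacgcgaCCGGAAGtcagactggcgg
Psmd12: tgagcgggcgaCTTCCGGtgcgagtgacga
Psmd13: cgcccgcggtgCCGGAAGtgagcgagcact

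**Figure D1:**
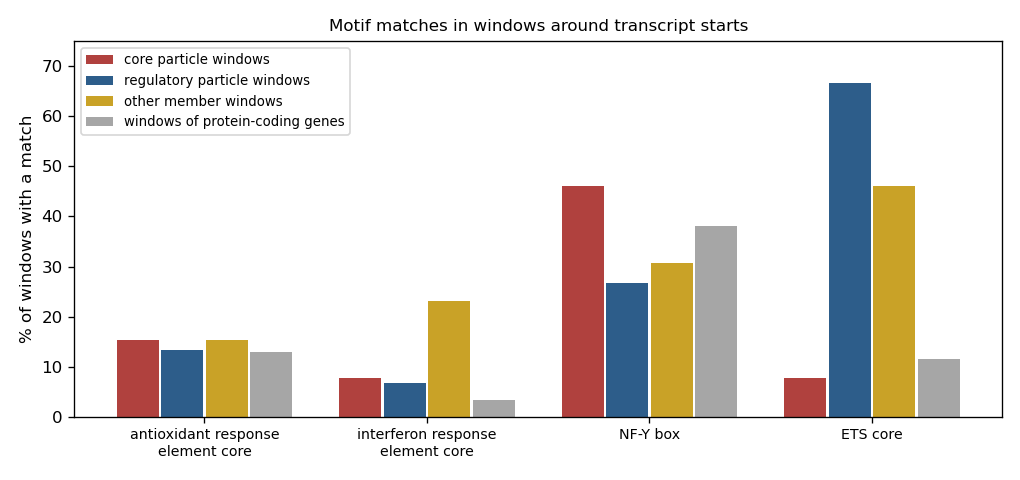
Share of start-site windows (vertical axis, percent) that hold each of 4 motifs, for windows of core particle, regulatory particle and other member genes and for all protein-coding genes; the bar labelled NF-Y box is the CCAAT motif. The ETS core was found in 66.67% of regulatory particle windows, 7.692% of core particle windows and 11.56% of windows of protein-coding genes.

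Proteasome signals differed little among the 6 groups. Of the 67 tested probe sets, 7 were called between the regions in mutants of 6 weeks (3 with higher and 4 with lower signals in the oculomotor nucleus), beside 23.9% of all tested probe sets (12.2% higher, 11.7% lower). In controls of 10 weeks 1 was called, as higher (13.6% of all, 6.62% higher and 6.94% lower), in mutants of 10 weeks 3, all higher (19.3% of all, 9.30% higher and 9.99% lower), and in the mean regional difference over the 3 conditions 9, with 3 higher and 6 lower (37.7% of all, 20.0% higher and 17.7% lower). The 9 probe sets called in 1 or more comparisons of 2 groups belonged to 9 genes. The median log2 fold change of the members was -0.05 in controls and 0.01 in mutants of 10 weeks, beside 0.01 and 0.00 over all tested probe sets. The median size of the difference, regardless of sign, was 0.09, 0.14 and 0.11 for the members and 0.21, 0.19 and 0.20 for all tested. These are descriptions, with no test of the list.

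The precision bounded most differences. The 95% interval of the regional difference lay within 1.5-fold in either direction for 60, 57 and 61 of the 67 members (mutants of 6 weeks, controls and mutants of 10 weeks), beside 61.0%, 58.8% and 63.5% of all tested. The median standard deviation (SD) within groups was 0.134 for the members and 0.166 for all tested, whose signals were lower on the whole. From array to array, the median deviation of the members from their own means ranged from -0.042 to 0.055. That of the core particle ranged more widely, from -0.140 in control oculomotor replicate 2 to 0.117 in oculomotor replicate 3 of the 6-week mutants, while that of the regulatory particle ranged from -0.066 to 0.053. Only 20 of the 67 members had a regional difference of 1 sign in all 3 conditions (29.9%), beside 54.3% of all tested. In all 3 conditions 1 of the 67 members was called, beside 1014 of all 13575 tested.

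**Figure D2:**
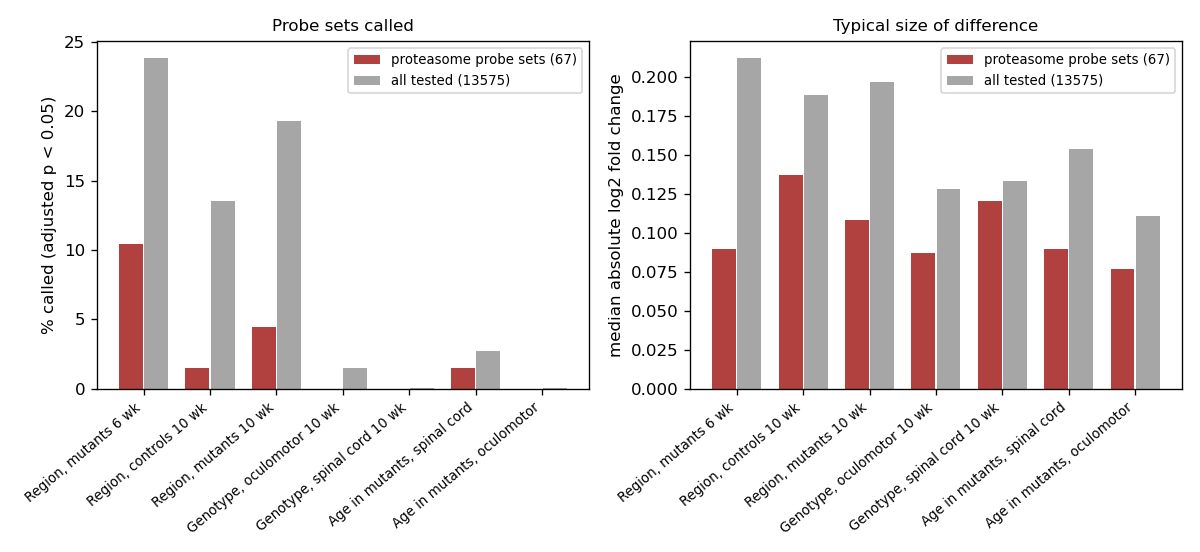
Left, share of probe sets with an adjusted p under 0.05 (percent), and right, median absolute log2 fold change, for the 67 tested proteasome probe sets (red) and all 13575 tested (grey) in 7 comparisons of 2 groups. In the regional comparison of 6-week mutants, 23.9% of all tested probe sets were called, and the median size was 0.09 for the members and 0.21 for all.

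Of the 3 catalytic subunits, 0 were called in limma in any comparison, and at an unadjusted p under 0.05 there was at most 1 in a comparison. Of all tested probe sets, between 6.15% (genotype by region) and 46.5% (mean regional difference) were at an unadjusted p under 0.05. Psmb5, the chymotrypsin-like subunit, had signals of 2522, 2408 and 2497 in the oculomotor nucleus and 2413, 2443 and 2301 in the spinal cord of 6-week mutants. The corresponding values were 2484, 2201 and 2428 against 2509 and 2557 in controls, and 2165, 2763 and 2242 against 2492, 2339 and 2264 in mutants of 10 weeks. The groups overlapped in mutants of either age, and in controls both spinal cord arrays lay above the 3 oculomotor ones. Its mean regional difference was -0.01 ± 0.05 (95% interval -0.13 to 0.10). Its difference between mutants and controls was 0.00 ± 0.09 in the oculomotor nucleus (-0.19 to 0.20) and -0.10 ± 0.10 in spinal cord (-0.31 to 0.11), and neither comparison called it (adjusted p = 0.992 and 0.757 in limma). The mutant oculomotor array with the highest Psmb5 signal, replicate 2 at 10 weeks, also had the highest pituitary hormone signals, and without it the oculomotor difference between genotypes was -0.10.

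Psmb6, the caspase-like subunit, had its lowest group mean in control oculomotor nucleus (1759, 1206 and 1632), where replicate 2 was the lowest of all arrays, against 1975 and 1738 in control spinal cord. In mutants of 10 weeks it had 1587, 2040 and 1768 in the oculomotor nucleus and 1739, 1973 and 1709 in spinal cord, and these ranges overlapped. In 6-week mutants it had 1714, 1915 and 1914 against 1974, 1927 and 1997, and the oculomotor arrays were the lower ones. The regional difference in controls was -0.29 ± 0.14 (adjusted p = 0.186), and without control oculomotor replicate 2 it was -0.13. Psmb7, the trypsin-like subunit, had 6429, 6435 and 7151 against 6072, 7209 and 6874 in 6-week mutants, with overlap, and 5909, 5958 and 6131 against 7026 and 6724 in controls, without overlap. At 10 weeks the mutants had 5854, 6848 and 6460 against 7736, 7206 and 6826, and the highest oculomotor array lay just above the lowest spinal cord array. Its mean regional difference of -0.13 ± 0.05 had an adjusted p of 0.0518 in limma and was not called. Some alternatives took it past the threshold, among them quantile normalization (-0.19, adjusted p = 0.0026), a filter of 60% (-0.13, 0.0478) and 1 probe set per gene (-0.13, 0.0451).

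**Figure D3:**
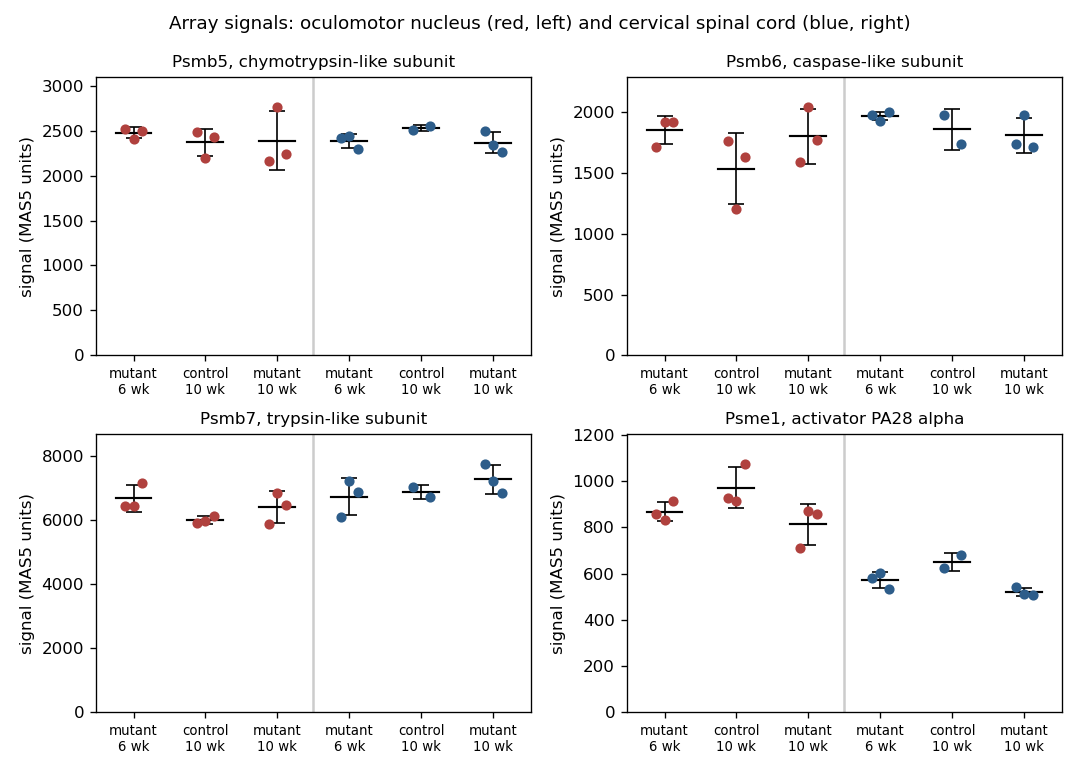
Signals (vertical axis, deposited units) of the catalytic subunits Psmb5, Psmb6 and Psmb7 and of the activator subunit Psme1 on each array, for oculomotor nucleus (red) and cervical spinal cord (blue); bars give the group mean and its SD. The catalytic subunits overlap between most groups, while every oculomotor array of Psme1 (709 to 1074) lies above every spinal cord array (509 to 680).

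In the alpha ring, 0 of 11 tested probe sets of Psma1 to Psma7 were called in limma in any comparison of 2 groups (0 to 3 at an unadjusted p under 0.05), and 1 was called in the mean regional difference. That was Psma7 by probe set 2, with -0.25 ± 0.08 (adjusted p = 0.0149), and its other probe set had -0.14. In controls 9 of 11 alpha probe sets had a negative regional difference (median -0.18), beside 47.8% of all tested. Without control oculomotor replicate 2, whose core particle deviation was the lowest of all arrays (-0.140), the count was again 9 of 11 with a median of -0.08, and without control spinal cord replicate 2 it was 8 of 11 with a median of -0.10. In 6-week mutants 5 of 11 were negative and in mutants of 10 weeks 4 of 11, beside 45.5% and 49.9% of all tested. Psma4 was the member with the largest genotype difference in spinal cord. Its signals were 1771 and 1746 in control spinal cord and 1792, 2887 and 2859 in mutants of 10 weeks, so that mutant replicate 1 lay with the controls. In the oculomotor nucleus they were 1996, 1658 and 1691 in controls and 2608, 2122 and 2489 in mutants, without overlap. The differences were 0.48 ± 0.16 in spinal cord (adjusted p = 0.273) and 0.43 ± 0.14 in the oculomotor nucleus (adjusted p = 0.137). Without mutant spinal cord replicate 1 the spinal cord value was 0.70 with an adjusted p of 0.0153.

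Psma5 by probe set 1 had 860, 825 and 832 in control oculomotor nucleus and 1069, 1021 and 938 in mutants of 10 weeks, without overlap. The difference of 0.26 ± 0.08 had an adjusted p of 0.133, and that of its other tested probe set was 0.04. In 6-week mutants the same probe set had 1124, 1102 and 1113 in that region. Psma6 shows how probe sets of 1 gene can disagree: its 3 tested probe sets had regional differences of 0.57, 0.04 and -0.03 in 6-week mutants, and the largest value came from probe set 2, whose signals were 114 to 292.

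The structural beta subunits gave 0 of 7 calls in limma in the comparisons of 2 groups (0 to 3 at an unadjusted p under 0.05) and 1 in the mean regional difference. Psmb3 by probe set 2 had 948, 892 and 1004 in control oculomotor nucleus and 1338 and 1216 in control spinal cord, without overlap. The control difference was -0.42 ± 0.14 (adjusted p = 0.0552) and the mean regional difference was -0.25 ± 0.08 (adjusted p = 0.0128). Its probe set 1 had -0.35 ± 0.12 in controls (adjusted p = 0.0552). Both were under 0.05 in controls with quantile normalization (-0.37 and -0.44, adjusted p = 0.0472 and 0.0494) or when the lowest 60% were left out. Psmb1 by probe set 1 had 126, 170 and 146 in control oculomotor nucleus and 221, 218 and 203 in mutants of 10 weeks (0.48 ± 0.14, adjusted p = 0.0956). Its probe set 2 had 0.09 there.

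Psmb10, the beta subunit that replaces Psmb7 in the immunoproteasome and is induced by interferon, was higher in the oculomotor nucleus of mutants of 10 weeks. Its signals were 605, 843 and 661 there and 485, 530 and 499 in spinal cord, with no overlap, and the difference was 0.45 ± 0.12 (1.36-fold, adjusted p = 0.0110). Without the oculomotor replicate 2, whose 2 pituitary hormone genes summed to 19963 against 130 to 368 in spinal cord arrays, it was 0.31 with an adjusted p of 0.0729. In 6-week mutants it had 669, 581 and 618 against 624, 712 and 712 (-0.13), and in controls 647, 590 and 715 against 585 and 579 (0.15). The difference of 10 minus 6 weeks in mutant spinal cord was -0.42 ± 0.12 (adjusted p = 0.0604), and with median centring this was -0.50 with an adjusted p of 0.0363. Psmb8 and Psmb9, the other beta subunits of the immunoproteasome, were below the filter limit. Psmb8 had signals of 11.1 to 88.8 in the oculomotor nucleus and 19.6 to 128 in spinal cord. Psmb9 had 16.9 to 99.8 against 85.7 to 144.8. Its spinal cord arrays were the higher ones in mutants of either age, without overlap, while the controls overlapped.

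**Figure D4:**
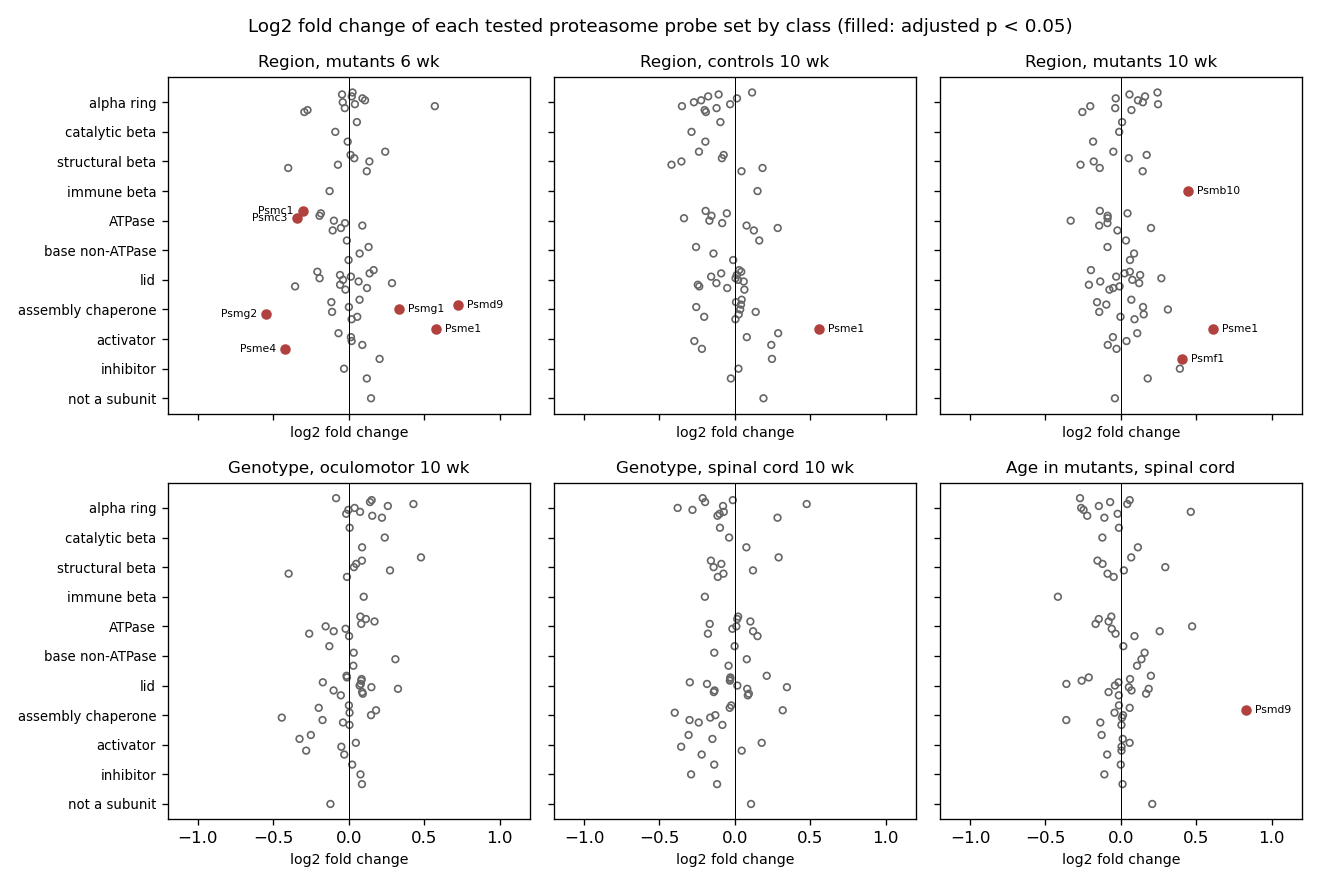
Log2 fold change (horizontal axis) of each of the 67 tested probe sets in 6 comparisons of 2 groups, arranged by class of subunit; points within a class are spread vertically for legibility, and filled red points had an adjusted p under 0.05. Upper panels show oculomotor nucleus minus spinal cord, lower panels mutant minus control in each region and 10 minus 6 weeks in mutant spinal cord, with Psme1 between 0.56 and 0.61 in all 3 regional panels.

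Among the ATPases of the base, 2 of 9 probe sets were called lower in the oculomotor nucleus of 6-week mutants (11.7% of all tested were called lower), and the same 2 in the mean regional difference. Psmc1 had 1395, 1468 and 1571 in the oculomotor nucleus and 1786, 1769 and 1939 in spinal cord of 6-week mutants, with no overlap (-0.30 ± 0.09, adjusted p = 0.0185). It had 1525, 1365 and 1632 against 1736 and 1710 in controls, again without overlap, and 1535, 1722 and 1509 against 1655, 1793 and 1805 in mutants of 10 weeks, where the groups overlapped. Psmc3 had 1559, 1925 and 1750 against 2283, 2358 and 2018, also without overlap (-0.35 ± 0.10, adjusted p = 0.0200). In controls Psmc3 had 1841, 1648 and 1757 against 2209 and 2219 (-0.34 ± 0.12, adjusted p = 0.0593), and in mutants of 10 weeks 1772, 2034 and 1758 against 1731, 2139 and 2060, where the groups overlapped (-0.09). The mean regional differences were -0.21 ± 0.05 for Psmc1 (adjusted p = 0.0041) and -0.26 ± 0.06 for Psmc3 (adjusted p = 0.0029). Both 6-week calls were lost in a fit of those arrays alone (adjusted p = 0.0534 and 0.0524). That of Psmc1 was also lost without oculomotor replicate 1 (-0.26, adjusted p = 0.0652) or spinal cord replicate 3 (-0.26, 0.0758), and that of Psmc3 without oculomotor replicate 1 (-0.27, 0.0901) or spinal cord replicate 1 (-0.32, 0.0644) or 2 (-0.30, 0.0771). The mean regional differences of both stayed called without each of the 17 arrays in turn. A dim untested probe set of Psmc1 had 54.9, 48.5 and 85.1 against 43.3, 33.2 and 56.2 in 6-week mutants. These groups overlapped, with the higher mean in the oculomotor nucleus, and the controls overlapped too. With no filter, limma called this probe set lower in the oculomotor nucleus of mutants of 10 weeks (-0.87, adjusted p = 0.0456).

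The other ATPases Psmc2, Psmc4, Psmc5 and Psmc6 had 7 tested probe sets, with no call in limma. Both probe sets of Psmc2 had -0.19 in 6-week mutants. Psmc5 had signals from 3213 to 4913 and a mean regional difference of 0.01. Of the base subunits without ATPase activity, Psmd1 and Psmd2 form the scaffold, and Psmd4 binds ubiquitin chains, and 0 of their 4 probe sets were called in limma (at most 1 at an unadjusted p under 0.05). Psmd4 by probe set 1 had the smallest p of all members for genotype in the oculomotor nucleus. Its signals were 1864, 1721 and 1698 in controls and 2215, 2249 and 2091 in mutants of 10 weeks, without overlap (0.31 ± 0.08, adjusted p = 0.0710). In 6-week mutants it had 1905, 1957 and 2026, and its other probe set differed by 0.03 between genotypes.

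The lid had 13 tested probe sets of 8 genes, of which 0 were called in limma in comparisons of 2 groups (0 to 2 at an unadjusted p under 0.05) and 1 in the mean regional difference. Psmd12 had that call, with -0.17 ± 0.06 (adjusted p = 0.0273), and lost it without 1 of 6 arrays (adjusted p between 0.0518 and 0.0728: oculomotor replicates 1 and 2 and spinal cord replicate 2 of 6-week mutants, control oculomotor replicate 1, control spinal cord replicate 2, and spinal cord replicate 1 of mutants of 10 weeks). Its control signals were 1316, 1462 and 1461 in the oculomotor nucleus and 1715 and 1642 in spinal cord. Psmd14, the deubiquitinase of the lid, had 2617 to 3227 over all arrays and a mean regional difference of -0.01. Psmd8 had 1372, 1286 and 1339 in control and 1074, 1234 and 1237 in mutant oculomotor nucleus, and 1550 and 1429 in control and 1300, 1197 and 1126 in mutant spinal cord. Its genotype difference was -0.17 in the former region and -0.30 ± 0.10 in the latter (adjusted p = 0.283). Next by p in spinal cord was Psma6 by probe set 1 (-0.28, adjusted p = 0.310). The 4 tested probe sets of Psmd11 ran from -0.19 to 0.29 in the regional difference of 6-week mutants. The highest, probe set 4, also had a genotype difference of 0.33 ± 0.10 in the oculomotor nucleus (adjusted p = 0.119), from 778, 776 and 650 in controls to 967, 935 and 871 in mutants.

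**Figure D5:**
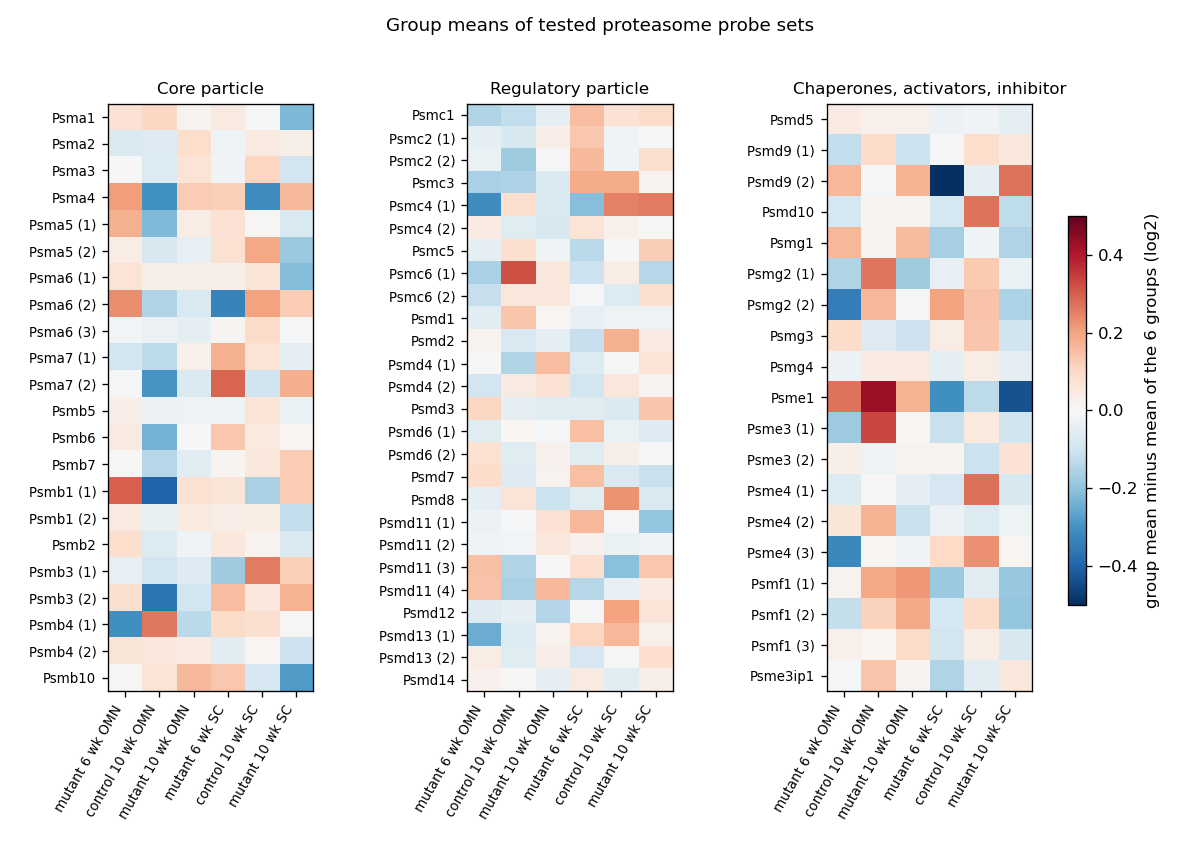
Mean log2 signal of each tested probe set in each of the 6 groups, minus its mean over the 6 groups (colour, log2 units, limited to 0.5 either way), in oculomotor nucleus (OMN) and spinal cord (SC), for core particle, regulatory particle and other members including Psme3ip1; numbers in brackets are the probe set numbers used in the text. Psme1 is the row with the widest split between oculomotor nucleus (left columns) and spinal cord (right columns). Smaller splits are seen in other rows, such as Psmc1 and Psmc3, whose means are higher in spinal cord.

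Psme1, the alpha subunit of the interferon-inducible activator that can cap the core particle in place of the regulatory particle, was the member called in all 3 regional comparisons. In 6-week mutants its signals were 857, 834 and 913 in the oculomotor nucleus and 583, 602 and 533 in spinal cord. In controls they were 928, 913 and 1074 against 623 and 680. In mutants of 10 weeks they were 709, 871 and 860 against 542, 514 and 509. No oculomotor array overlapped with a spinal cord array. The differences were 0.58 ± 0.10 (adjusted p = 0.0004), 0.56 ± 0.11 (adjusted p = 0.0025) and 0.61 ± 0.10 (adjusted p = 0.0003), and their mean was 0.58 ± 0.06 (adjusted p = 4.6e-07). Without control spinal cord replicate 2, which leaves 1 array in that group, the control difference was 0.50 with an adjusted p of 0.0514.

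Between mutants and controls of 10 weeks, the Psme1 difference was -0.25 ± 0.10 in the oculomotor nucleus (adjusted p = 0.235 in limma) and -0.31 ± 0.11 in spinal cord (adjusted p = 0.315), and neither was called. Within each region no mutant array overlapped with a control array. With so few arrays this is a description, which cannot show whether the genotypes differ. The summed signal of 8 microglia genes was 5118 to 6142 in the oculomotor nucleus and 7462 to 11377 in spinal cord, which is the opposite order to that of Psme1, and that of 6 endothelial genes was 2677 to 2908 against 2913 to 3302. Their part in the Psme1 difference was not tested. The partner subunit Psme2 was measured by a probe set that also names another gene, so it was not analysed here.

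Psme3 and Psme4 are nuclear activators. Psme3 had no call, and its 2 tested probe sets had genotype differences of -0.33 and 0.05 in the oculomotor nucleus. Psme4 by probe set 3 had 427, 350 and 364 in the oculomotor nucleus of 6-week mutants and 558, 476 and 519 in spinal cord (-0.42 ± 0.14, adjusted p = 0.0372). It had 439, 606 and 425 against 558 and 578 in controls, and 490, 455 and 476 against 387, 519 and 562 in mutants of 10 weeks, with overlap in both. Its other probe sets had 0.02 and 0.09, and the call was lost without oculomotor replicate 2 or 3 or spinal cord replicate 1 or 3, with adjusted p between 0.0830 and 0.123, and with no filter (0.0560). The mean regional difference of this probe set, -0.22 ± 0.09 (adjusted p = 0.0466), was lost without any of 13 of the 17 arrays, with adjusted p of at most 0.101, with no filter (0.0669) and without both arrays high in pituitary hormones (-0.18, 0.136).

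Psmf1, an inhibitor of the core particle, was higher in the oculomotor nucleus by probe set 1. In mutants of 10 weeks it had 269, 234 and 231 there and 175, 159 and 203 in spinal cord, without overlap (0.40 ± 0.14, adjusted p = 0.0491). It had 206, 235 and 189 against 199, 150.0 and 190 in 6-week mutants, with overlap, and 218, 262 and 242 against 210 and 188 in controls, without overlap. Probe sets 2 and 3 had 0.39 and 0.18 in mutants of 10 weeks. Its mean regional difference was 0.28 ± 0.08 (adjusted p = 0.0118), and those of its other tested probe sets were 0.13 and 0.09. The call in mutants of 10 weeks was lost without any oculomotor array or spinal cord replicate 1 or 2 (0.33 to 0.44, adjusted p between 0.0731 and 0.172), in a fit of those arrays alone (0.0925) and with no filter (0.0767), while the call of the mean stayed without each array in turn.

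The assembly chaperones escort immature core and base intermediates, and 3 of their 9 probe sets were called in 6-week mutants, beside 23.9% of all tested. Psmg1 had 575, 716 and 668 in the oculomotor nucleus and 525, 523 and 487 in spinal cord, without overlap (0.33 ± 0.11, adjusted p = 0.0325). In mutants of 10 weeks it had 594, 704 and 648 against 503, 490 and 560 (0.31 ± 0.11, adjusted p = 0.0521), and in controls the groups overlapped (0.03). The control signals were 577, 587 and 584 against 631 and 511. The 6-week call was lost without 5 of the 6 arrays, all but oculomotor replicate 1 (0.27 to 0.35, adjusted p between 0.0586 and 0.134), and that of its mean regional difference, 0.23 ± 0.07 (adjusted p = 0.0104), without control spinal cord replicate 3 (0.18, adjusted p = 0.0587). With median centring the 6-week value was 0.28 with an adjusted p of 0.0871, and in a fit of those arrays alone the adjusted p was 0.0756.

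Psmg2, the partner of Psmg1, went the other way in 6-week mutants by probe set 2, with 219, 306 and 302 in the oculomotor nucleus and 448, 423 and 365 in spinal cord (-0.55 ± 0.14, adjusted p = 0.0069). It had 419, 353 and 431 against 346 and 444 in controls, with overlap, and 350.0, 351 and 353 against 283, 331 and 331 in mutants of 10 weeks, without overlap. Its probe set 1 had -0.11, with overlapping groups. The regional difference of probe set 2 was 0.03 in controls and 0.15 in mutants of 10 weeks, and the test of whether it changed with age gave 0.70 ± 0.19 (adjusted p = 0.114).

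Psmd9, a chaperone of the base, gave the single call for age. By probe set 2 its signals in mutant spinal cord were 93.4, 80.4 and 125 at 6 weeks and 200.0, 192 and 189 at 10 weeks, without overlap, and the difference was 0.83 ± 0.18 (1.77-fold, adjusted p = 0.0231). Of all tested probe sets 2.76% were called (1.78% higher, 0.972% lower). The oculomotor signals of 6-week mutants were 141, 256 and 155, which is a regional difference of 0.72 ± 0.18 (adjusted p = 0.0070), while that of controls was 0.04 and that of mutants of 10 weeks -0.10. The control signals were 156, 139 and 173 against 162 and 140, and the oculomotor signals of mutants of 10 weeks were 181, 169 and 190. These comparisons share the 6-week spinal cord arrays. Its probe set 1 had 297, 312 and 256 in spinal cord at 6 weeks and 334, 275 and 295 at 10 weeks (0.06), and a regional difference of -0.12 in 6-week mutants. The age call was lost without spinal cord replicate 1 or 2 of 6-week mutants or replicate 1 or 3 of mutants of 10 weeks (0.72 to 0.84, adjusted p between 0.0502 and 0.0896), and in fits of the compared arrays alone the adjusted p was 0.0824 for age and 0.0548 for region at 6 weeks. With a mean log2 signal of 7.51 it was the member closest above the filter limit of 7.38, and the closest below was a probe set of Psmb1 (7.23).

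For genotype at 10 weeks, 0 of the 67 members were called in either region in limma, beside 1.47% of all tested in the oculomotor nucleus (1.04% higher, 0.435% lower) and 0.0221% in spinal cord (0.0147% higher, 0.00737% lower). At an unadjusted p under 0.05 there were 11 members in the former (16.4%, beside 14.9% of all tested) and 7 in the latter (10.4%, beside 11.7%), shares near the background. The median difference of the members between mutants and controls was 0.03 in the oculomotor nucleus and -0.08 in spinal cord, beside -0.01 and 0.00 over all tested. Core particle probe sets had a positive difference in 17 of 22 cases in the oculomotor nucleus (median 0.09) and in 5 of 22 in spinal cord (median -0.09), beside 48.3% and 50.2% of all tested. Single arrays moved these counts: the median core particle deviation was -0.140 in control oculomotor replicate 2 and 0.086 in mutant oculomotor replicate 2, and without them the oculomotor count was 14 and 15 of 22. Without control or mutant oculomotor replicate 3 that count was 20 of 22. The deviation was 0.082 in control spinal cord replicate 2 and -0.075 in mutant spinal cord replicate 1, and without them the spinal cord count was 8 and 7 of 22 (medians -0.04 and -0.07). Those of the regulatory particle had 16 and 13 of 26 (medians 0.05 and 0.00). The test of the difference between the regions called 0 members in limma (2 at an unadjusted p under 0.05, or 2.99%, beside 6.15% of all tested), beside 0.00% of all tested called, and its smallest p among members was that of Psma5 by probe set 1 (0.34 ± 0.13, adjusted p = 0.747), followed by Psma3 (0.34, 0.783) and Psma6 by probe set 1 (0.28, 0.819). The regional comparison of controls uses the same control arrays.

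The precision of these comparisons was such that the 95% interval lay within 1.5-fold for 61 of 67 members in the oculomotor nucleus (78.3% of all tested) and 56 of 67 in spinal cord (70.9%). For the difference between the regions this was 40 of 67. For age in mutants, 0 members were called in the oculomotor nucleus in limma (2 at an unadjusted p under 0.05, or 2.99%, beside 8.82% of all tested, of which 0.0221% were called), and the median member differed by 0.00. The smallest p there were those of Psmg2 by probe set 2 (0.34, adjusted p = 0.503), Psme4 by probe set 3 (0.30, 0.559) and Psmf1 by probe set 2 (0.31, 0.570). In spinal cord the single call was that of Psmd9, next by p were Psmb10 (above) and Psmd11 by probe set 1 (-0.36, adjusted p = 0.104), and the median was -0.01. The difference in age change between regions called 0 members in limma (7 at an unadjusted p under 0.05, or 10.4%, beside 16.1% of all tested), beside 0.368% of all tested (0.140% higher, 0.228% lower). Its smallest p were those of Psmg2 (above), Psmb10 (0.57 ± 0.16, adjusted p = 0.121) and Psmd9 (-0.82 ± 0.26, adjusted p = 0.143).

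The 16 untested probe sets had mean log2 signals of 5.25 to 7.23 and belonged mostly to genes with a brighter tested probe set. One of them, a Psmd7 probe set, had 66.1, 85.9 and 104 in the oculomotor nucleus and 39.4, 16.6 and 19.8 in spinal cord of 6-week mutants. At 10 weeks the mutants had 94.8, 119 and 110 against 22.6, 60.4 and 42.2, without overlap, while the controls, with 59.4, 66.0 and 28.4 against 29.4 and 34.8, overlapped. The tested Psmd7 probe set had -0.06 and 0.13 in the same comparisons. With no filter, limma called the dim Psmd7 probe set in 6-week mutants (1.15, adjusted p = 0.0051) and in mutants of 10 weeks (1.03, 0.0129). Its mean regional difference was called as well (0.85, 0.0004). A dim Psma5 probe set was also called with no filter in 6-week mutants (0.68, 0.0309), and that of Psmc1 is given above. The dim Psmd7 probe set was singled out after its values were seen.

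Partners of the proteasome were read from a list of 37 genes, of which 28 were tested. In the mean regional difference 8 had higher and 3 lower signals in the oculomotor nucleus among the calls (20.0% and 17.7% of all tested). For genotype 0 were called in limma in either region, and at an unadjusted p under 0.05 there were 6 of 28 in the oculomotor nucleus and 3 of 28 in spinal cord, beside 14.9% and 11.7% of all tested. Nfe2l2, the transcription factor of the oxidative stress response, was lower in all 3 conditions, with 390, 434 and 408 against 636, 697 and 719 in 6-week mutants. Its mean regional difference was -0.67 ± 0.06 (adjusted p = 1.1e-07). Nfe2l1, which drives proteasome genes when the proteasome is impaired, had -0.07 ± 0.07 (adjusted p = 0.424). Psmb5 and Psmb6, with the antioxidant element shown above, had -0.01 and -0.13 in the same comparison. Of the other members with this element, Psmd12 and Psme4 by probe set 3 were called lower there. The tested probe sets of Psme4 ran from -0.22 to 0.08, and Psmc6 and Psmd9 were not called. Whether Nfe2l2 or Nfe2l1 has a part in these values was not tested.

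Pomp, the maturation protein of the core particle, was lower in the oculomotor nucleus, with 2277, 2239 and 2261 against 3014 and 2730 in controls and 2427, 2774 and 2373 against 3077, 2950 and 3048 in mutants of 10 weeks. Its mean regional difference was -0.28 ± 0.05 (adjusted p = 0.0002). Sqstm1, the receptor that delivers ubiquitin-tagged cargo to autophagy, rose with age in the spinal cord of mutants, from 3516, 3654 and 3431 at 6 weeks to 5263, 5097 and 5003 at 10 weeks (0.53 ± 0.08, adjusted p = 0.0029). In the oculomotor nucleus it was 5231, 5027 and 5154 at 6 weeks and 5195, 5496 and 4813 at 10 weeks. The age change differed between the regions (-0.53 ± 0.11, adjusted p = 0.0459). Control spinal cord of 10 weeks had 4866 and 4534, and no control of 6 weeks was measured. The mean regional difference of Sqstm1 (0.19) came with 0.54 in 6-week mutants, 0.03 in controls and 0.01 in mutants of 10 weeks. Of the other partners called higher in the mean, the shuttle factor Ubqln2 (0.28), the ubiquitin ligase Ube3a (0.24) and the chaperone Bag6 (0.21) were called by themselves in mutants of 10 weeks, and the deubiquitinase Uchl1 (0.23) in 6-week mutants. The deubiquitinase Usp14 (0.19) and the ligase Stub1 (0.20) were called in no single condition. The shuttle factor Rad23b (0.25) was called in controls (0.68), with 2010, 2873 and 2395 in the oculomotor nucleus and 1352 and 1641 in spinal cord, and had 0.03 in 6-week mutants and 0.04 in mutants of 10 weeks. Zfand5, a zinc finger protein that activates the proteasome, was lower in the mean (-0.24) and was called by itself in 6-week mutants (-0.38).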

How the data were processed

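Biotin-labelled cRNA was hybridised to Affymetrix Mouse Expression Set 430A arrays. The deposited values are intensity signals on a linear scale, which the authors computed with MAS5, per the labels and the submitters' processing notes. Array medians and correlations showed how alike the arrays were, and 1 array was left out.

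After removal of 64 control probe sets, 25 was added to each signal and the log2 was used without normalizing again. Probe sets whose mean was among the lowest 40% were not tested, which left 13575. Group means were fitted with limma 3.58.1 in R 4.3.3 (eBayes with trend, with 11 residual degrees of freedom). Benjamini-Hochberg adjustment was made over all 13575 within each of 10 contrasts. The steps were tested on simulated data.

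The members, the classes, the partner and marker lists, and the motifs were chosen with earlier results of these data known. Values on every array are given for Psmb5, Psmb6, Psmb7 and members called in a comparison of 2 groups, and the 3 smallest p where fewer than 3 were called; other named members stand for their class or were chosen after their values were seen. Alternatives covered normalization, offset, filter, eBayes trend, replicate block, probe sets and arrays. Sequences are RefSeq's (GRCm38.p6); signals of different probe sets are not compared.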

Additional observations from a re-analysis of the deposited data

How the results depend on the processing

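Counts of members called and medians were recomputed under each alternative; in the sentences that follow, values not given moved by at most 1.5 times (counts) or less than 1 SD between replicates (medians). In controls, the regional count of 1 was 3 with quantile normalization, a filter of 60%, the arrays of the comparison alone or 1 probe set per gene, 2 without control oculomotor replicate 3 and oculomotor replicate 2 of the mutants of 10 weeks (the pituitary arrays, high in pituitary hormone signals) and 0 with all 18 arrays. In 6-week mutants the count of 7 was 3 with the arrays of the comparison alone, 4 with 1 probe set per gene and 0 with all 18. In mutants of 10 weeks the count of 3 was 5 with median centring, 2 with the replicate block or the arrays of the comparison alone, 1 without the pituitary arrays and 0 with all 18. The count of 9 for the mean was 1 with all 18. The age count of 1 in spinal cord was 2 with median centring or without the pituitary arrays, and 0 with a filter of 60%, the arrays of the comparison alone, all 18 or 1 probe set per gene. Median centring moved the member medians to -0.053 (region, 6 weeks), 0.044 (region, mutants of 10 weeks), -0.127 (genotype, spinal cord), 0.163 (genotype by region), -0.093 (age, spinal cord) and 0.115 (age by region). No filter gave 0.0033 (region, controls) and -0.038 (genotype, spinal cord), 1 probe set per gene -0.085 (region, controls) and leaving out the pituitary arrays -0.010 (age by region). With all 18 arrays the medians were 0.432 (region, controls), 0.151 (mean), 0.545 (genotype, spinal cord) and -0.487 (genotype by region), the median of all tested shifted to 0.24, 0.09, 0.23 and -0.25, and the mean regional differences of Psmc1 and Psmc3 turned to 0.033 and 0.287. With all 18 arrays the calls of Psme1 were also lost in 6-week mutants (0.58, adjusted p = 0.0577), controls (0.42, 0.146) and mutants of 10 weeks (0.61, 0.0594). The fit with all 18 arrays takes in control spinal cord replicate 1, whose correlation with the others was only 0.0104 to 0.0143. Causes of the changes under the other alternatives were not tested. Leaving out each array in turn gave 0 to 2 calls (region, controls), 1 to 5 (region, mutants of 10 weeks), 0 to 1 (age and genotype, spinal cord), and medians of -0.027 to 0.046 (region, 6 weeks), -0.010 to 0.060 (age by region), 0.047 to 0.131 (genotype by region) and -0.018 to 0.042 (age, oculomotor nucleus). With the replicate block, 10 members were called between regions in 6-week mutants, and Psmf1 in mutants of 10 weeks (adjusted p = 0.0635) and Psme4 in the mean (0.0664) lost their calls. Same-numbered arrays had residual correlations of -0.10 to 0.13. With so few arrays per group, these values cannot show whether a number marks a shared animal or batch, and the labels do not say.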
